A study of Arabidopsis thaliana with 4 samples.

Results

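The mitochondrion-encoded rows of the deposited expression file are the 122 rows, of 27654 in all, whose identifiers begin with ATMG, the prefix of Arabidopsis thaliana genes that lie in the mitochondrial genome. Of these, 29 had a mean of at least 10 normalised reads over the 4 libraries and were tested, among 19931 rows tested in all. The libraries came from whole Columbia seedlings. One group was the mutant fip1-2, named for FIP1 (AT5G58040), a factor of the nuclear machinery that cleaves and polyadenylates messenger RNA. Its control was the reporter line SKP2B::GUS, in which the SKP2B promoter drives the GUS enzyme. Each group had 2 libraries. The labels do not say what lesion the mutant allele holds, whether fip1-2 also carries the reporter, or whether libraries of a group came from separate cultures, so the p-values measure only the spread between these libraries, which may be technical. Both lines grew in Murashige and Skoog medium for a time given as 8 with no unit. The labels describe RNA bound to oligo(dT) beads and fragmented before sequencing, while the series' design text names the sequencing of poly(A) tags.

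Plant mitochondria keep a large genome of their own that encodes subunits of the respiratory chain complexes and of ATP synthase, proteins for cytochrome c maturation, part of the mitochondrial ribosome, and ribosomal and transfer RNAs. Most mitochondrial proteins, including the enzymes that transcribe, splice, edit and degrade these RNAs, are encoded in the nucleus and imported. A poly(A) tail stabilises most messenger RNA in the cytoplasm, whereas in plant mitochondria it is a mark that promotes decay. A library selected with oligo(dT) therefore reads what part of the mitochondrial RNA it captured, and not its total level. In whole seedlings fewer mitochondria or cells of a type and less RNA in each cannot be told apart.

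The libraries were close in depth, with 20908391 and 20874114 reads assigned to rows in fip1-2, against 21056064 and 21104606 in the control. The deposited scaling left the sum of all rows 5.81% higher in fip1-2 than in the control. FIP1 itself had 5217 and 5145 normalised reads in fip1-2, against 1796 and 1912 in the control, a log2 fold change of 1.48 (limma, adjusted p = 2.98e-11). FIP1 reads were thus higher in the mutant, and with the lesion not given, this count is no check of the allele. Markers of shoot and of root were detected in every library. The 4 shoot genes summed to 334407 and 351818 normalised reads in fip1-2, against 271705 and 267506 in the control. The 4 root genes summed to 7185 and 6688 in fip1-2, against 2350 and 2428 in the control. All 4 seed genes (CRC, OLEO1, OLEO2 and PER1) were above 0 in every library, and they summed to 3183 and 1190 in fip1-2, against 74.9 and 25.2 in the control. The genes within a sum differed in fold, fip1-2 over control, from 1.30 for CASP1 to 6.94 for IRT1 in root. In shoot the fold ran from 1.10 for RBCS1A to 1.69 for PSBO2. Whether these sums reflect tissue make-up or the regulation of the marker genes was not tested. Nor was the part of either in the mitochondrial values below.

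Mitochondrion-encoded rows took a very small part of the reads. Their share of the summed normalised reads was 0.0502% and 0.0470% in fip1-2, against 0.0404% and 0.0457% in the control. Both fip1-2 libraries lay above both control libraries, but the gap between the nearer pair was smaller than the spread within the control. The mean share was 0.0486% ± 0.00230 in fip1-2 and 0.0431% ± 0.00381 in the control (SD, n = 2 each), a ratio of 1.13. An exact two-sided permutation test gave p = 0.333, the smallest that 2 against 2 libraries allow, so the difference could not pass the threshold. Without control replicate 1 the difference of the means, 0.00554 percentage points over all 4 libraries, was 0.00285 points.

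One row accounted for more than all the others together. ATMG00030, to which the tables used here give no name, held 61.8% and 58.8% of the mitochondrial reads in fip1-2, against 55.3% and 60.4% in the control. ATMG00090, also without a name here, held 12.0% and 13.6% in fip1-2, against 14.7% and 12.2% in the control. In both cases the groups overlapped. With ATMG00030 set aside, the other rows took 0.0192% and 0.0194% of the reads in fip1-2, against 0.0180% and 0.0181% in the control, a ratio of 1.07. The replicates of the remaining rows were thus much closer to each other than those of the whole mitochondrial sum.

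**Figure D1:**
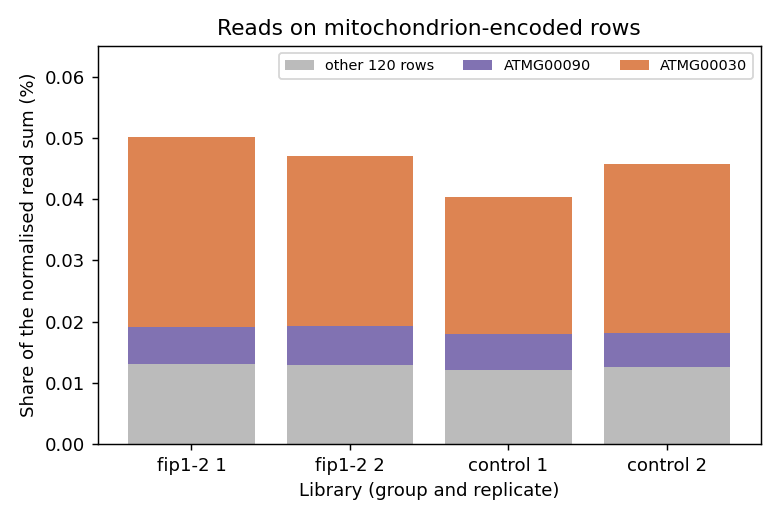
Share of each library's summed normalised reads, in percent, taken by ATMG00030, ATMG00090 and the other 120 mitochondrion-encoded rows, for 2 fip1-2 and 2 control libraries. ATMG00030 makes up most of each bar, and the lowest bar is control replicate 1 at 0.0404%.

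The rows differed widely in how many reads they drew. Of the 122 rows, 42 had no read in any library, 16 had a mean above 0 and under 1, and 35 had a mean from 1 to under 10. Among the 29 tested rows, 19 had means from 10 to under 100 and the other 10 were higher, led by ATMG00030 and ATMG00090. The 93 rows under the minimum summed to only 145 and 152 normalised reads in fip1-2, against 116 and 127 in the control. Just inside the minimum were ATMG00516 and ATMG00040, with means over the 4 libraries of 13.2 and 15.9, and just outside were ATMG01280 at 9.94 and ATMG00630 at 9.44. No length is given for these rows in the tables used here, so read numbers are not compared between rows as expression levels.

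Of the 29 tested rows, 10 were higher and 1 was lower in fip1-2 at an adjusted p under 0.05, and 18 did not pass. These 11 calls make 37.9% of the tested rows, against 53.8% called among all rows tested. Higher calls made up 34.5% of the mitochondrial rows and 27.0% of all rows, and lower calls 3.45% and 26.8%. The median log2 fold change, fip1-2 minus control, was 0.19 over the mitochondrial rows and -0.0043 over all rows tested. Both fip1-2 libraries lay above both control libraries in 16 of the 29 rows (38.2% of all rows tested), and below both in 2 (39.0% of all). The groups overlapped in the other 11. Fold changes were estimated less tightly here than elsewhere, with a median standard error of 0.20 on the log2 scale, against 0.094 over all rows.

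**Figure D2:**
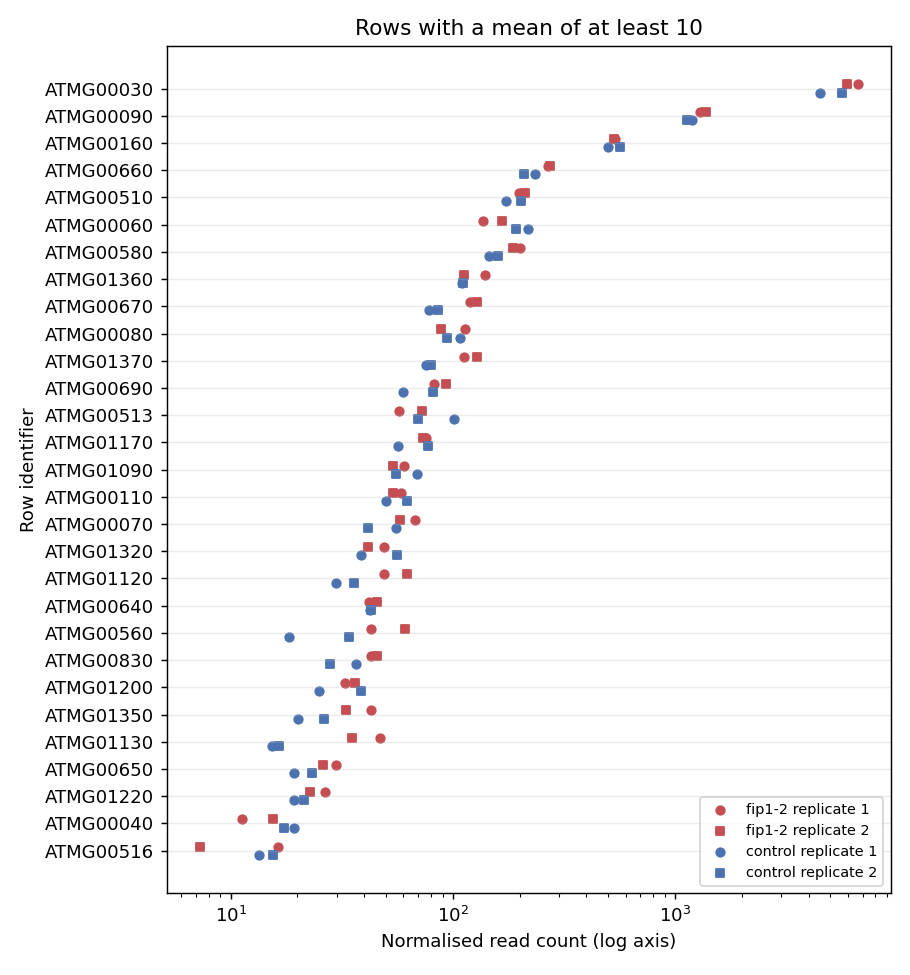
Normalised read count (log axis) of each of the 29 tested mitochondrion-encoded rows in the 2 fip1-2 and 2 control libraries, ordered by mean. Values span from under 10 for ATMG00516 to 6648 for ATMG00030, and the groups separate in some rows and overlap in others.

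The proteins of the respiratory chain and ATP synthase could be placed for only a few tested rows. RefSeq gives no entry to ATMG identifiers, but notes on nuclear genes name 53 of the 122 as their best protein match or parent gene, with a protein name for 25. Only 3 of those 25 reached the minimum, ATMG01090, ATMG01320 and ATMG00560. ATMG01090, noted as ATP synthase 9, a subunit of the membrane ring of the enzyme that makes ATP, had 60.4 and 54.0 normalised reads in fip1-2, against 69.2 and 55.3 in the control. The groups overlapped, with a log2 fold change of -0.11 ± 0.19 (SE, limma, adjusted p = 0.651). A row with a like note, ATMG01080 (mitochondrial F0-ATPase subunit 9), had 2 and 0 reads in fip1-2, against 2 and 4 in the control. ATMG01080 was under the minimum and was chosen after its values were seen. Which of these rows stands for the ring subunit was not tested. ATMG01320, noted as NADH dehydrogenase 2B, a protein of complex I, which passes electrons from NADH into the chain, had 49.2 and 41.5 in fip1-2, against 38.4 and 56.3 in the control. Its 2 fip1-2 values lay between the 2 control values, at a log2 fold change of -0.04 ± 0.23 (adjusted p = 0.895).

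ATMG00560, the other named row that reached the minimum, was called higher in fip1-2. It is noted as a nucleic acid-binding protein with an OB-fold-like domain, a fold found in many proteins that bind single-stranded nucleic acid. It had 43.0 and 61.2 normalised reads in fip1-2, against 18.3 and 34.0 in the control. The groups did not overlap, and the log2 fold change was 0.98 ± 0.29 (adjusted p = 0.0105). Control replicate 1 was the lowest library, with 19 reads, and without that library the fold change was 0.57 and did not pass (adjusted p = 0.0937). Nor did it pass without fip1-2 replicate 2, at 0.74 (adjusted p = 0.130). Its nuclear copy AT2G07715 had 54.3 and 52.9 in fip1-2, against 52.8 and 47.6 in the control, and did not pass (log2 fold change 0.09 ± 0.20, adjusted p = 0.713).

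Other subunits named in the notes drew few reads or none. There was no read in any library for ATMG00220 (apocytochrome b, the membrane core of complex III), ATMG00730 (cytochrome c oxidase subunit 3), ATMG00210 (ribosomal protein L5), ATMG01270 (ribosomal protein S7) or ATMG00900 (cytochrome c biogenesis 256). At a floor of 3 reads per library, counting error alone does not separate these rows from a very low level. ATMG01190, noted as ATP synthase subunit 1, had 3 and 4 reads in fip1-2, against 1 and 1 in the control. ATMG01275, noted as NADH dehydrogenase 1A, had 7 and 7 reads in fip1-2, against 0 and 5 in the control. These counts are too small to compare. These rows, all under the minimum, were chosen after their values were seen.

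Low read numbers went together with a noted nuclear copy. The nuclear chromosome 2 of Arabidopsis carries a large insertion of mitochondrial DNA. In the RefSeq genome (TAIR10.1), 72.6% of the mitochondrial sequence of 367808 bases matched chromosome 2 at 99% identity or more over at least 200 bases. Of the 33 protein-coding genes that RefSeq places in the mitochondrial genome, 22 were covered over at least 95% of their span. Another 6 had no match there, among them cox1 and cox2 for complex IV and nad9 for complex I.

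Among the 53 rows named in notes of nuclear genes, 4 (7.55%) had a mean of at least 10, against 25 of the 69 rows (36.2%) without such a note. The median of the row means was 0.259 for the noted rows and 3.27 for the others, and 39.6% and 30.4% of them had no read at all. The RefSeq genes nad6, nad7 and matR matched chromosome 2 over 100% of their span, and no note gives these names. The 69 rows without a note may thus include copied ones, so the contrast is by note and not by copy. Together the noted rows took 2.33% and 2.39% of the mitochondrial reads in fip1-2, against 2.26% and 2.40% in the control. That portion was thus alike in the 4 libraries. How the authors' counting treated reads that match both copies was not stated in the labels or the file, and its part in these low numbers was not tested.

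The noted nuclear copies drew few reads too. Of the 55 nuclear genes whose notes name a mitochondrial row, 46 were rows of the file, 6 had a mean of at least 10, and 17 had no read. AT2G07698, annotated as the alpha subunit of the F1 part of ATP synthase and noted as a match of ATMG01190, had 100 and 110 normalised reads in fip1-2, against 96.1 and 113 in the control (log2 fold change 0.01 ± 0.15, adjusted p = 0.942). The values of the 2 groups were interleaved. Here the nuclear row drew the reads and its mitochondrial partner almost none, so which genome they came from is uncertain for such pairs. The 46 nuclear rows summed to 333 and 332 normalised reads in fip1-2, against 288 and 311 in the control.

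**Figure D3:**
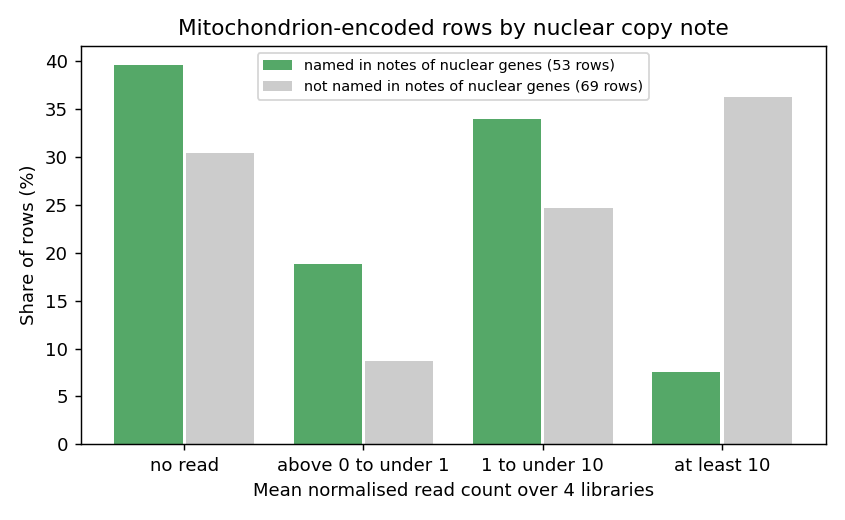
Share of mitochondrion-encoded rows, in percent, in 4 classes of mean normalised read count over the 4 libraries, for the 53 rows named in notes of nuclear genes and the 69 rows not named in them. The class of at least 10 holds 7.55% of the noted rows and 36.2% of the others.

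Among the 29 tested rows the largest fold change was that of ATMG01130, which has no name in the tables used here. It had 47.1 and 35.3 normalised reads in fip1-2, against 15.4 and 16.5 in the control. Both fip1-2 libraries were more than double either control library, and the means were 41.2 ± 8.37 in fip1-2 and 15.9 ± 0.798 in the control (SD, n = 2 each). The log2 fold change was 1.26 ± 0.27 (adjusted p = 0.00141). It was the sole called row with a change of at least 2-fold on that scale, and the sole one to pass in every alternative in which it was tested, 13 in all. Its lowest fold change among those was 1.02.

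The rows with the most reads had smaller fold changes. ATMG00030 had 6648 and 5982 normalised reads in fip1-2, against 4518 and 5662 in the control. Control replicate 1 stood well below control replicate 2, and fip1-2 replicate 2 was nearer to control replicate 2 than to fip1-2 replicate 1. Replicate 2 over replicate 1 was 1.25 in the control (95% exact binomial interval 1.21 to 1.30) and 0.900 in fip1-2 (0.868 to 0.932), intervals that cover counting error only. The replicates thus differed by more than counting error in both groups. As a share of all summed reads, ATMG00030 took 0.03104% and 0.02761% in fip1-2, against 0.02233% and 0.02764% in the control. On that scale the groups overlapped (exact permutation test, p = 0.667), so they were separate only on the deposited scaling. The log2 fold change was 0.32 ± 0.08 (adjusted p = 0.00457). The call did not hold without fip1-2 replicate 1 (adjusted p = 0.0907), with robust variances (0.151), with no filter on low rows (0.0679) or with DESeq2 (0.163). Without control replicate 1 the fold change was 0.16. ATMG00090 had 1295 and 1380 in fip1-2, against 1200 and 1140 in the control, a log2 fold change of 0.19 ± 0.06 (adjusted p = 0.0136). It did not pass without control replicate 2 (adjusted p = 0.0631) or fip1-2 replicate 2 (adjusted p = 0.129).

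Of the next rows by read number, some passed and some did not. ATMG00160, the third by mean, had 540 and 529 normalised reads in fip1-2, against 501 and 564 in the control. The fip1-2 values lay inside the control range and the log2 fold change was 0.01 ± 0.08 (adjusted p = 0.933). ATMG00660 had 268 and 273 in fip1-2, against 235 and 210 in the control, a log2 fold change of 0.28 ± 0.10 (adjusted p = 0.0298). ATMG00580 had 202 and 186 in fip1-2, against 145 and 160 in the control, a log2 fold change of 0.34 ± 0.12 (adjusted p = 0.0253). The groups were separate in both of these rows, to which the tables used here give no name. ATMG00660 did not pass without control replicate 2 (adjusted p = 0.200) or without either fip1-2 library (0.0940 and 0.119). ATMG00580 did not pass without control replicate 1 (adjusted p = 0.136) or fip1-2 replicate 1 (adjusted p = 0.155).

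A pair of rows, ATMG00670 and ATMG01370, ran close together in every library. ATMG00670 had 120 and 129 normalised reads in fip1-2, against 77.8 and 85.4 in the control. ATMG01370 had 113 and 129 in fip1-2, against 75.9 and 79.6 in the control. Both rows held 124 reads in fip1-2 replicate 2, and neither group overlapped the other. The log2 fold changes were 0.60 ± 0.15 (adjusted p = 0.00353) and 0.62 ± 0.15 (adjusted p = 0.00324). With each library left out, the fold changes ran from 0.53 to 0.66 for ATMG00670 and from 0.52 to 0.71 for ATMG01370. Neither row passed with DESeq2 (adjusted p = 0.0571 and 0.0508). Scaled to the mitochondrial sum, neither passed with limma (adjusted p = 0.0655 and 0.0624). The file gives no coordinates, so whether these 2 rows overlap or share sequence was not tested.

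A further 2 called rows had lower read numbers. ATMG01120 had 49.2 and 62.3 normalised reads in fip1-2, against 29.8 and 35.9 in the control, a log2 fold change of 0.72 ± 0.23 (adjusted p = 0.0141). ATMG01350 had 43.0 and 33.2 in fip1-2, against 20.2 and 26.2 in the control, a log2 fold change of 0.67 ± 0.27 (adjusted p = 0.0450). Their groups were separate, and in ATMG01350 the gap between the nearest libraries of the 2 groups was smaller than the spread within fip1-2. ATMG01120 did not pass without control replicate 1 (adjusted p = 0.0676) or fip1-2 replicate 2 (adjusted p = 0.126). ATMG01350 did not pass without control replicate 1 (adjusted p = 0.207) or fip1-2 replicate 1 (adjusted p = 0.245).

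ATMG00060 was the row that fell. It had 136 and 166 normalised reads in fip1-2, against 217 and 192 in the control. Both fip1-2 libraries were below both control libraries, with a log2 fold change of -0.44 ± 0.13 (adjusted p = 0.0103). It did not pass without fip1-2 replicate 1 (adjusted p = 0.122) or without control replicate 1 (adjusted p = 0.0615). ATMG00513 had a similar fold change of -0.37 ± 0.20 and did not pass (adjusted p = 0.138). Its values were 57.4 and 72.7 in fip1-2, against 101 and 69.9 in the control, so the groups overlapped and control replicate 1 alone was high. Without control replicate 2 it was at -0.63 and passed (adjusted p = 0.0167).

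**Figure D4:**
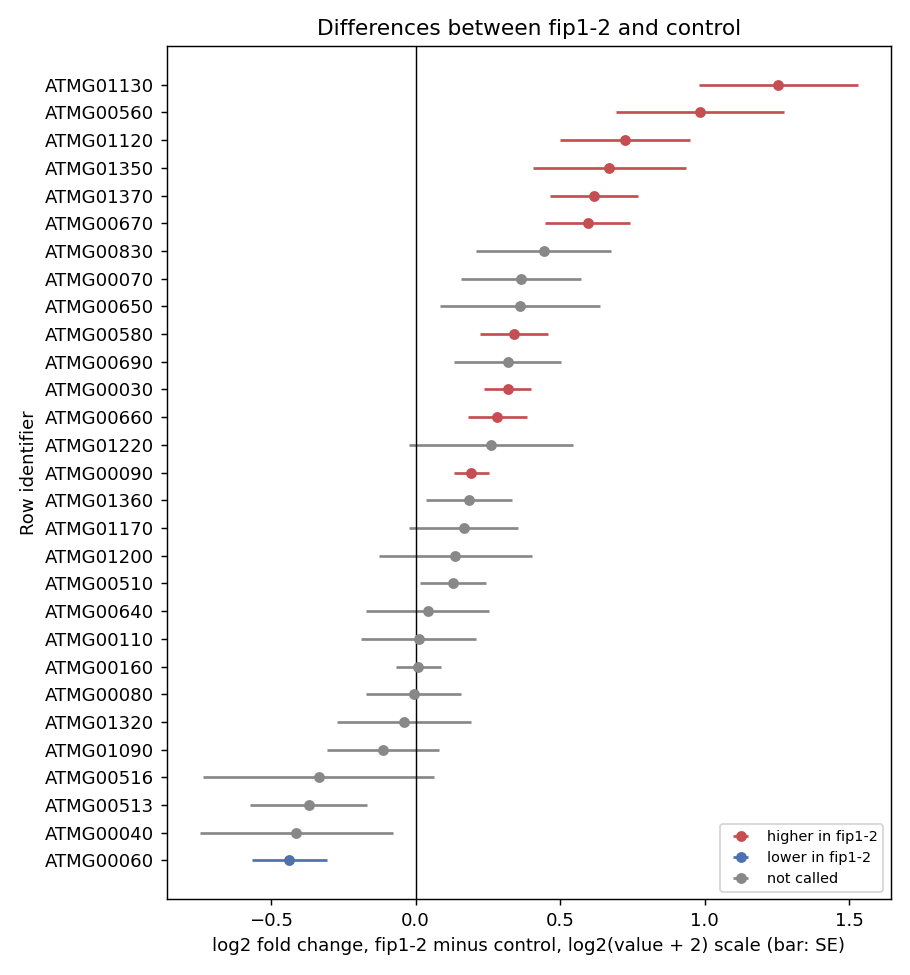
Log2 fold change, fip1-2 minus control, on the log2(value + 2) scale with its standard error, for the 29 tested mitochondrion-encoded rows. The 10 rows called higher run from 0.19 to 1.26, the single row called lower is at -0.44, and 18 rows were not called.

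The remaining rows among the 15 of highest mean did not pass, and neither did 10 rows of lower mean, whose log2 fold changes lay between -0.41 and 0.44. ATMG00510, ATMG01360, ATMG00690 and ATMG01170 had log2 fold changes of 0.13, 0.19, 0.32 and 0.17. ATMG00690 was at 0.54 and passed without control replicate 2 (adjusted p = 0.0399). ATMG00080 had 114 and 88.2 normalised reads in fip1-2, against 108 and 94.2 in the control, with equal group means of 101. Over all 29 tested rows the fold change on the deposited scaling was above 0 in 22 and below 0 in 7. The median over all rows tested was -0.0043.

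The calls depended on the scale against which the rows were read. Where each mitochondrial row was divided by the mitochondrial sum of its own library, the log2 fold changes of the 29 rows shifted by a median of -0.25 by construction, since that sum was 1.19-fold higher in fip1-2. On that scale 2 rows were higher and 3 lower, beside 53.8% of all rows called. The median log2 fold change of the 29 rows was -0.065. ATMG00090 was then at -0.065 (adjusted p = 0.526) and ATMG00160, which had a fold change near 0 before, at -0.25 (adjusted p = 0.00887). ATMG01130 remained higher at 1.02 (adjusted p = 0.00549). DESeq2 on the recovered reads called 1 of the 29 rows, ATMG01130, beside 36.3% of all rows. With no filter on low rows, ATMG00660, ATMG00580, ATMG00560 and ATMG01350 also did not pass (adjusted p = 0.0543, 0.0502, 0.0626 and 0.0720), and ATMG01350 did not pass with quantile normalisation (0.0739). Leaving out any 1 library changed which of the 29 rows were called, and the share of all rows called fell as well. The median log2 fold change of the 29 rows ran from 0.16 without control replicate 1 to 0.24 without control replicate 2.

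The chloroplast genome was measured in the same libraries. Its 88 chloroplast-encoded rows took 2.42% and 2.37% of the summed reads in fip1-2, against 2.14% and 2.17% in the control, a ratio of 1.11. Mitochondrial reads per chloroplast reads were 2.08% and 1.98% in fip1-2, against 1.89% and 2.11% in the control. These values overlapped, and 2 libraries a group are too few to tell a change in this ratio from none. Of the 83 chloroplast rows tested, 38 were higher (45.8%, against 27.0% of all rows tested) and 10 lower (12.0%, against 26.8%) in fip1-2. Their median log2 fold change was 0.18.

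Nuclear genes listed for mitochondrial function or for organelle RNA moved in both directions. Of 102 tested genes in 8 lists, 20 were higher and 24 lower in fip1-2 (43.1%, against 53.8% of all rows tested), with a median log2 fold change of -0.0066. By list, the share called was 44.4% in complex I, 45.5% in complex III and cytochrome c, and 66.7% in ATP synthase. It was 36.4% in alternative respiration and stress signalling and 18.5% in splicing and editing factors. In the smaller lists, 4 of 5 tested genes were called in complex II, 6 of 10 in complex IV and 4 of 8 in RNA turnover. Whether any list differed from all rows tested in this share was not tested. The members of one complex often differed in direction, and nuclear subunits of complexes whose other subunits lie in the mitochondrial genome included both risers and fallers.

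Among 18 nuclear genes listed for complex I, 4 rose and 4 fell. GLDH, the last enzyme of vitamin C synthesis, which also serves complex I assembly, had 688 ± 29.7 normalised reads in fip1-2 and 498 ± 4.58 in the control (SD, n = 2 each; log2 fold change 0.46, adjusted p = 6.84e-05). AT5G11770 rose by 0.33, while AT4G02580 was at -0.34 and GAMMA CAL2, a carbonic anhydrase-like subunit, at -0.24. Of the 5 tested genes of complex II, the succinate dehydrogenase whose subunits are all nuclear in this list, 4 fell and 1 did not pass. Their fold changes were -0.46 for SDH2-2, -0.34 for SDH2-1, -0.22 for SDH4 and -0.18 for SDH1-1. SDH2-2 and SDH1-1 did not pass without fip1-2 replicate 2 (adjusted p = 0.0543 and 0.0719), which left 2 calls in this list.

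For complex III and cytochrome c, 4 of 11 genes fell and 1 rose. AT3G27240 had 796 ± 8.68 normalised reads in fip1-2 and 1303 ± 78.6 in the control (log2 fold change -0.71, adjusted p = 3.42e-07), and CYTC-1, a cytochrome c gene, was at -0.50. AT5G13430 rose by 0.38. In complex IV, 5 of 10 fell and 1 rose, AT4G37830, a subunit of cytochrome c oxidase, with 6800 ± 417 in fip1-2 and 4294 ± 197 in the control (log2 fold change 0.66, adjusted p = 2.02e-07). DESeq2 called 3 genes of this list in place of 6. In the ATP synthase list 6 of 12 rose and 2 fell. The rises included AT5G08680 at 0.83, AT5G08690 at 0.54 and AT5G08670 at 0.51, similar copies of the beta subunit gene between which reads may be split, and AT3G46430 fell, at -0.80.

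Enzymes that act on organelle RNA were measured as well. In the list of transcription, RNA turnover and poly(A) factors, 4 of 8 rose and 4 did not pass. Among all rows tested, 53.8% were called and 27.0% were called higher. AT5G14580, a polyribonucleotide nucleotidyltransferase, an enzyme that removes tails and degrades RNA in mitochondria, had 265 and 266 normalised reads in fip1-2, against 147 and 181 in the control (log2 fold change 0.70, adjusted p = 0.000174). The RNA helicase gene ATSUV3 rose by 0.37, and the plastid RNA polymerase gene SCA3 by 0.30. The mitochondrial RNA polymerase gene MGP3 was at 0.19 with an adjusted p of 0.0499, and it did not pass when any 1 library was left out. AHG2, a poly(A)-specific ribonuclease of mitochondria, was at -0.16 (adjusted p = 0.220) and AT2G17580, a mitochondrial poly(A) polymerase, at -0.05 (adjusted p = 0.689). These last 2 were chosen after their values were seen. Without fip1-2 replicate 1 only AT5G14580 was called in this list, with ATSUV3 at an adjusted p of 0.0774 and SCA3 at 0.0837, and DESeq2 called 2 of its genes.

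Among 27 tested splicing and editing factors, 2 were higher, 3 lower and 22 did not pass (18.5% called, against 53.8% of all rows tested). Their standard errors ran from 0.05 for RIP1 to 0.26 for SLG1, and most were above the median of all rows tested, 0.094. The low share called therefore does not show that these genes changed less. PMH1 and PMH2, DEAD-box RNA helicases of mitochondrial splicing, rose by 0.58 and 0.36. OTP43, which serves intron splicing, had 34.0 ± 3.23 normalised reads in fip1-2 and 65.7 ± 0.890 in the control (log2 fold change -0.91, adjusted p = 0.00175). MEF1, an editing factor, was at -0.76.

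Alternative respiration and stress signalling genes gave 2 higher, 2 lower and 7 that did not pass. NDA1, an alternative NADH dehydrogenase of the inner membrane that bypasses complex I, had 801 and 723 normalised reads in fip1-2, against 197 and 187 in the control. Both fip1-2 libraries were far above both control libraries (log2 fold change 1.98 ± 0.09, adjusted p = 2.46e-10). AOX1A, the main alternative oxidase gene, was at 0.07 and did not pass (adjusted p = 0.412), and it was chosen after its values were seen. BCS1, an ATPase of the mitochondrial outer membrane, fell, at -0.91, and AOX1D, another alternative oxidase gene, was at -1.35 (adjusted p = 0.0448) with few reads. AOX1D was at -0.53 without control replicate 2 (adjusted p = 0.541), and it did not pass without either fip1-2 library. NAC13, a transcription factor of mitochondrial stress signalling, was at 0.28 and did not pass when any 1 library was left out. This list held 2 calls without either fip1-2 library.

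**Figure D5:**
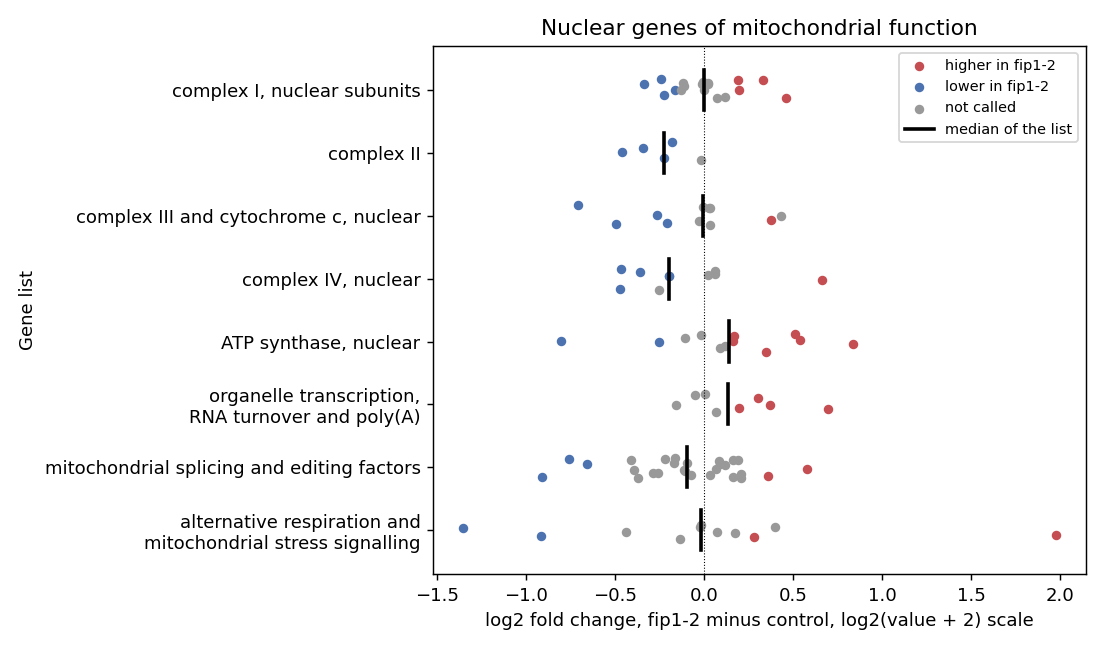
Log2 fold change, fip1-2 minus control, on the log2(value + 2) scale, of each tested nuclear gene in 8 lists. The lists cover mitochondrial function and organelle RNA, and a bar marks the median of each list. The list medians lie between -0.22 for complex II and 0.14 for ATP synthase, and the point farthest right is NDA1 at 1.98.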

How the data were processed

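RNA was measured in 4 libraries, 2 of fip1-2 and 2 of control seedlings, grouped by the labels. The deposited file holds a signal per row, read counts that the authors divided by 1 size factor per library, per the file headers and the values; whole reads were recovered by division (100% within 1e-06). CASAVA 1.4, FastQC, HISAT2, HTSeq and edgeR are named in the submitters' processing notes; the genome build, the annotation and how reads were counted have no source among those used here. No step that marks the strand is described in the labels, so reads of antisense or overlapping partners cannot be told apart.

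Rows with a mean of at least 10 were tested on log2(value + 2), which understates changes of low rows. The fit used limma 3.58.1 (lmFit, eBayes with a trend) under R 4.3.3. It draws each row's variance toward a trend over all tested rows. A standard error or p-value of a row therefore does not rest on the spread of that row's own replicates alone. Tests were two-sided, p-values were adjusted over all 19931 rows by the method of Benjamini and Hochberg, and the threshold was 0.05. edgeR 4.0.16 and DESeq2 1.42.0 were run on recovered reads as alternatives, beside other pseudocounts, filters, scalings, variance estimates, a replicate block and each library left out. edgeR called 10731 rows and limma 10726. The spread of replicates exceeded counting noise (chi-square per gene 2.72 in fip1-2 over 20712 genes and 2.97 in control over 20536) so each library counted as 1 sample. Depth and 2 libraries per group limit the precision, and intervals and floors cover counting error only. The fits were tested on simulated data. Nuclear copies were found with BLAST 2.17.0 against the RefSeq genome.

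The mitochondrial rows, the 8 nuclear lists and the markers were chosen with earlier results of these data known. Rows named are FIP1, the 15 mitochondrial rows of highest mean, called rows with separate groups, noted subunits with a mean of at least 10, and the 4 genes of smallest p in each list; others are said to be chosen afterwards.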

Additional observations from a re-analysis of the deposited data

How the results depend on the processing

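The 11 calls among the mitochondrial rows became 1 with DESeq2 (6 at an unadjusted p under 0.05). The share of all rows called went from 53.8% to 36.3%. A minimum mean of 50 tests 17 mitochondrial rows and called 7, beside 57.1% of all rows it tested. The set of called rows also changed when each library in turn was left out. With rows scaled to the mitochondrial sum there were 5 calls, of which 3 were among the 11, beside 53.8% of all rows called. Under that scaling ATMG00090 turned to -0.065 and ATMG00160 to -0.25. That scaling shifts every tested mitochondrial row by -0.26 to -0.22 on the log2 scale, because the sum was 1.19-fold higher in fip1-2; the cause of the DESeq2 change was not tested. edgeR and pseudocounts of 0.5 and 8 gave the same 11 rows, with 53.7% to 54.0% of all rows called. Quantile normalisation gave 10 (without ATMG01350, 52.9% of all rows) and robust variances 10 (without ATMG00030, 54.5% of all rows). No filter gave 9 calls of 80 mitochondrial rows tested, of which 6 were among the 11, beside 42.6% of all rows. The difference in mitochondrial share, 0.00554 percentage points, was 0.00120 without ATMG00030, from 0.00285 to 0.00823 when each library was left out, and from 0.00545 to 0.00625 under the other denominators and filter. The 44 calls in the nuclear lists ran from 32 to 45. The replicate numbers shared by the groups did not pair the libraries (correlation of deviations -0.0117); the fit with the replicate block called 11 mitochondrial rows, all 11 shared, and 45 nuclear genes. No scaling moved the median of all rows by over 0.1. Depth limits the rows under a mean of 10, which were not tested.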
